A study of Mus musculus with 8 samples.

Results

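Macrophages are the main resident immune cells of the testis. They lie in the interstitium beside Leydig cells and along the outer wall of the seminiferous tubules. They are known for clearing dying cells and debris and for a part in the immune tolerance of germ cells. These cells depend on the receptor Csf1r, whose ligands are Csf1 and Il34, and on the transcription factor PU.1, encoded by *Spi1*. The genes described here are 35 testis macrophage genes, taken by gene symbol from the 40840 genes of the deposited count tables. They fall into 7 roles: macrophage identity and survival, resident macrophage, complement C1q, antigen presentation, Fc receptors and signalling adaptors, myeloid innate defence, and pan-leukocyte genes. All 35 members passed the low-count filter, which left 19104 genes for testing.

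Read counts came from RNAseq of the whole testis at 12 days of age (P12) in 8 mice on a C57BL/6J background, 4 of each genotype, named here as replicates A to D. The study removed a poison exon of *Tra2b*, a gene for a splicing activator, from germ cells. By the study's methods, wild type mice were *Tra2bPE* fl/+ and carried no Cre, and *Tra2b-cPEko* mice were *Tra2b* fl/- with *Vasa-Cre*, a transgene active in germ cells alone. By that genotype, cells outside the germ line in *Tra2b-cPEko* mice, macrophages included, keep 1 floxed allele and carry 1 allele without the poison exon, and every mouse of both groups carries at least 1 floxed allele. In RNA from a whole organ, more macrophages and more RNA per macrophage cannot be told apart. *Tra2b* itself was at 158, 166, 156 and 176 CPM in wild type and 199.9, 190.3, 192 and 209 CPM in *Tra2b-cPEko*, and the groups did not overlap (log2 fold change 0.27 ± 0.049, adjusted p = 0.0552; DESeq2 adjusted p = 0.000195). Gene counts do not show whether the exon was removed.

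Libraries held 36757386 to 59101569 reads on genes. Several stood apart in sums over genes of other cells, among them *Tra2b-cPEko* B and C and wild type A and B. *Tra2b-cPEko* replicate C held 109 CPM (reads as a share of the library, scaled so that a library's genes sum to 1000000, after TMM scaling) summed over 8 epididymal genes, against 0.317 to 0.662 in the other 7 libraries, and 48.5 CPM over 7 adipocyte genes, against 8.49 to 14.5. Most of that epididymal sum was *Crisp1* (107 CPM), and each other epididymal gene was at no more than 1.09 CPM in that library. Wild type replicates A and B held 2021 and 1863 CPM over 12 meiotic germ cell genes, against 1362 to 1560 in the other 6. Over 8 red blood cell genes, wild type A and B held 98.5 and 139 CPM and *Tra2b-cPEko* B 83.9 CPM, against 25.8 to 53.5 in the remaining libraries. *Tra2b-cPEko* B also held 656 CPM over 7 Leydig cell genes, against 393 to 513 in the rest. Among genes named after their values were seen, *Mpo* and *Elane* of neutrophil precursors were at 5.33 and 0.842 CPM in *Tra2b-cPEko* A, against at most 0.0905 and 0.0508 in the other 7 libraries. *Car3* and *Fabp4* of adipocytes were at 17.9 and 14.1 CPM in *Tra2b-cPEko* C and at 2.51 and 2.59 CPM in *Tra2b-cPEko* D, against at most 0.271 and 0.872 in the other 6, and *S100a9* of neutrophils was at 0.813 CPM in wild type D, against at most 0.163. The members' counts are given below with each mouse left out, and the part of these libraries in the results was not tested.

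As a group the macrophage genes stood somewhat higher in *Tra2b-cPEko* testes, by about 20% at the median, with no single gene past the adjusted threshold of the main test. Every one of the 35 members had a log2 fold change above 0, from 0.03 for *Aif1* to 0.61 for *Spi1*, with a median of 0.26 (19.8%). Among all 19104 genes tested the median was -0.0011 and 49.7% had a log2 fold change above 0. In edgeR's quasi-likelihood test, 0 of 35 members had an adjusted p under 0.05, against 0.157% of all genes. At an unadjusted p under 0.05, 16 of 35 members (45.7%) were higher and 0 lower, against 8.22% higher and 7.07% lower among all genes. In 4 members (11.4%), *Spi1*, *Ctss*, *Fcgr2b* and *Cd53*, all *Tra2b-cPEko* mice were above all wild type mice, a pattern that 4.36% of all genes showed, while 4.18% showed the opposite one and no member did. Members are not replicates of one another, because the same 8 libraries supply all of them.

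**Figure D1:**
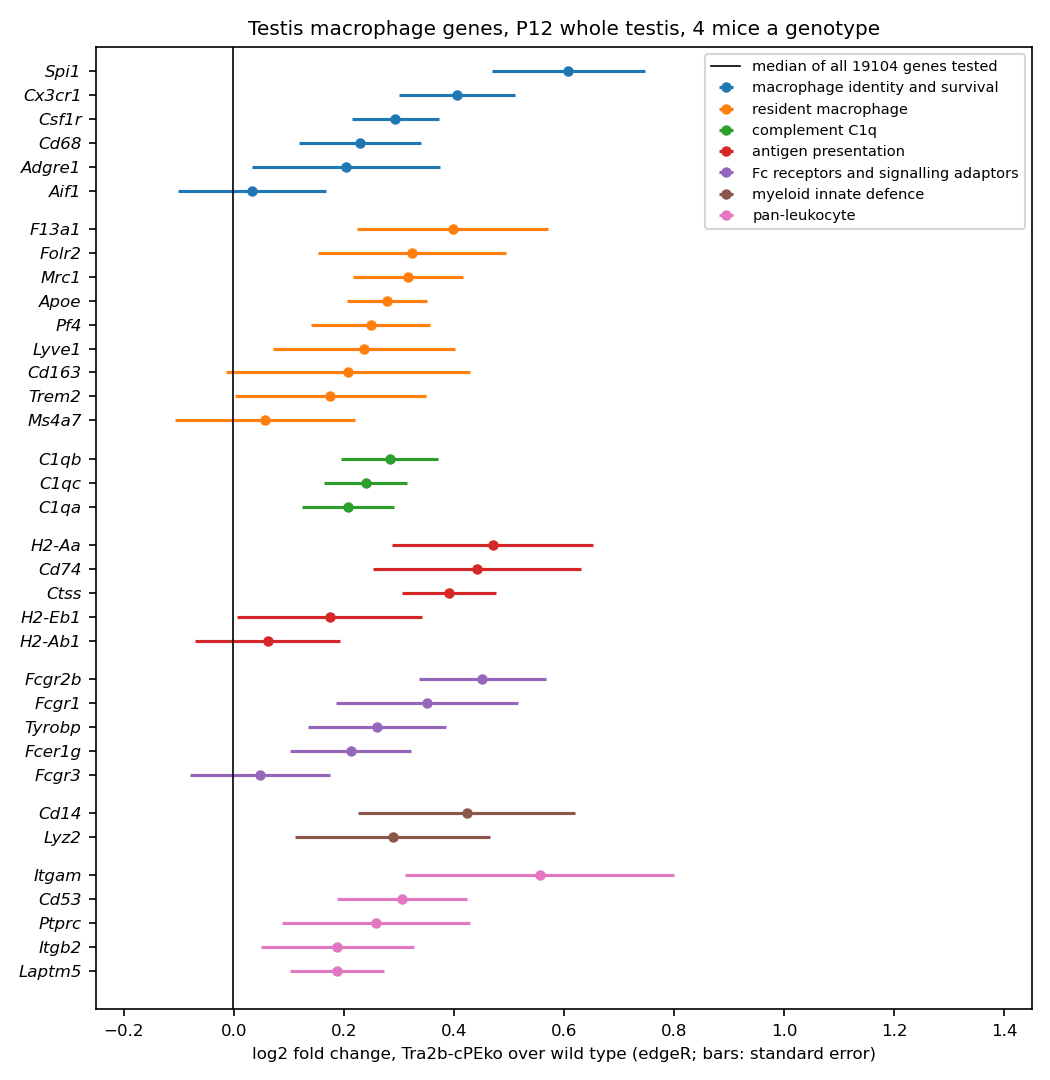
Log2 fold change of each member, *Tra2b-cPEko* over wild type (x axis, log2 units; bars, standard error), with members grouped by role on the y axis and a vertical line at the median of all genes tested. All 35 points lie right of that line, from 0.03 to 0.61, and the bars of *Aif1*, *Cd163*, *Ms4a7*, *H2-Ab1* and *Fcgr3* reach across it.

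How many members were called depended on the test. DESeq2, the tool the study used, gave 6 of 35 members (17.1%) an adjusted p under 0.05, all higher, against 1.66% of all genes higher at that threshold. They were *Csf1r*, *Spi1*, *Cx3cr1*, *Apoe*, *Ctss* and *Fcgr2b*. That count was 0 without *Tra2b-cPEko* replicate C and also 0 without wild type replicates A and B. Calls over all genes were fewer there too, 110 and 165, against 507 with all 8 mice. Leaving out each other mouse in turn gave 2 members without wild type A, 2 without wild type B, 10 without wild type C, 2 without wild type D, 3 without *Tra2b-cPEko* A, 4 without B and 4 without D. In the same order, those fits called 214, 213, 1025, 434, 235, 540 and 226 of all genes. In edgeR, 11 members were at an unadjusted p under 0.05 without *Tra2b-cPEko* C (31.4%, against 5.63% of all genes higher at that p), all of them among the 16. There were 14 without wild type A and B (40.0%, against 6.39%), 11 of them among the 16, and 10 without wild type D (28.6%, against 7.49%), all among the 16. Leaving out any other mouse gave 13 to 19, with 6.51% to 9.80% of all genes higher at that p. By role, in the order given at the start, 3, 2, 2, 2, 1, 0 and 1 members were at that p without *Tra2b-cPEko* C and 3, 3, 3, 2, 2, 0 and 1 without wild type A and B. The median log2 fold change was 0.22 without *Tra2b-cPEko* C and 0.29 without wild type A and B. All 35 members kept a log2 fold change above 0 in both of these fits. The count without overlap was 4 without *Tra2b-cPEko* C (5.07% of all genes were without overlap and higher there) and 4 without wild type A, 5 without wild type D and 6 without *Tra2b-cPEko* A. It was 8 without wild type B, 10 without wild type C, 9 without *Tra2b-cPEko* B, 14 without *Tra2b-cPEko* D and 9 without wild type A and B. With fewer mice the share of all genes without overlap and higher was larger too, 5.07% to 8.47% with 1 mouse left out and 10.7% without wild type A and B.

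The genes of macrophage identity and survival included the member with the largest difference. *Spi1* (chromosome 2, 90912562 to 90946101, GRCm39) encodes PU.1, the factor that sets the myeloid programme. Its level was 1.86, 2.27, 1.94 and 1.97 CPM in wild type A to D and 3.37, 2.42, 3.38 and 3.02 CPM in *Tra2b-cPEko* A to D. All *Tra2b-cPEko* mice were above all wild type mice, though *Tra2b-cPEko* B was close to wild type B, with a log2 fold change of 0.61 ± 0.14, adjusted p = 0.099. An exact two-sided permutation test over the 8 mice gave p = 0.0286, the smallest that 4 against 4 allows. That p follows from the lack of overlap and adds nothing to it, and *Ctss*, *Fcgr2b* and *Cd53* had the same one. *Csf1r*, the receptor for the growth factors that keep macrophages alive, was at 23.7, 21.8, 27.9 and 24.3 CPM in wild type A to D and 29.3, 29.7, 33.3 and 27.6 CPM in *Tra2b-cPEko* A to D. Only wild type C and *Tra2b-cPEko* D crossed, and the log2 fold change was 0.29 ± 0.080, adjusted p = 0.136. Its transcripts share 1327 bases with *Hmgxb3*, which lies on the opposite strand, so the split of reads between them is uncertain, and 18 of the 35 members have some annotated gene on the other strand. *Cx3cr1*, a chemokine receptor of tissue macrophages, was at 9.55, 8.42, 10.9 and 8.49 CPM in wild type A to D and 13.3, 12.8, 12.9 and 10.3 CPM in *Tra2b-cPEko* A to D. Again wild type C stood above *Tra2b-cPEko* D alone (log2 fold change 0.41 ± 0.11, adjusted p = 0.127).

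The 3 other identity genes differed less. *Cd68*, a lysosomal membrane glycoprotein, was at 7.45 ± 0.743 CPM in wild type and 8.72 ± 1.18 CPM in *Tra2b-cPEko* (log2 fold change 0.23 ± 0.11, adjusted p = 0.35). *Adgre1*, which encodes the F4/80 antigen, was at 6.81, 6.65, 8.23 and 6.05 CPM in wild type A to D and 5.37, 9.397, 9.56 and 7.65 CPM in *Tra2b-cPEko* A to D. The lowest of all 8 values was in *Tra2b-cPEko* A and the highest in *Tra2b-cPEko* C, so the groups overlapped widely (log2 fold change 0.20 ± 0.17, adjusted p = 0.596). *Aif1*, an actin-binding protein of macrophages, was nearly level, at 1.97 ± 0.223 CPM in wild type and 2.01 ± 0.1601 CPM in *Tra2b-cPEko* (log2 fold change 0.033 ± 0.13, adjusted p = 0.932), and its sign turned without wild type D (-0.050) and without *Tra2b-cPEko* A (-0.024).

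**Figure D2:**
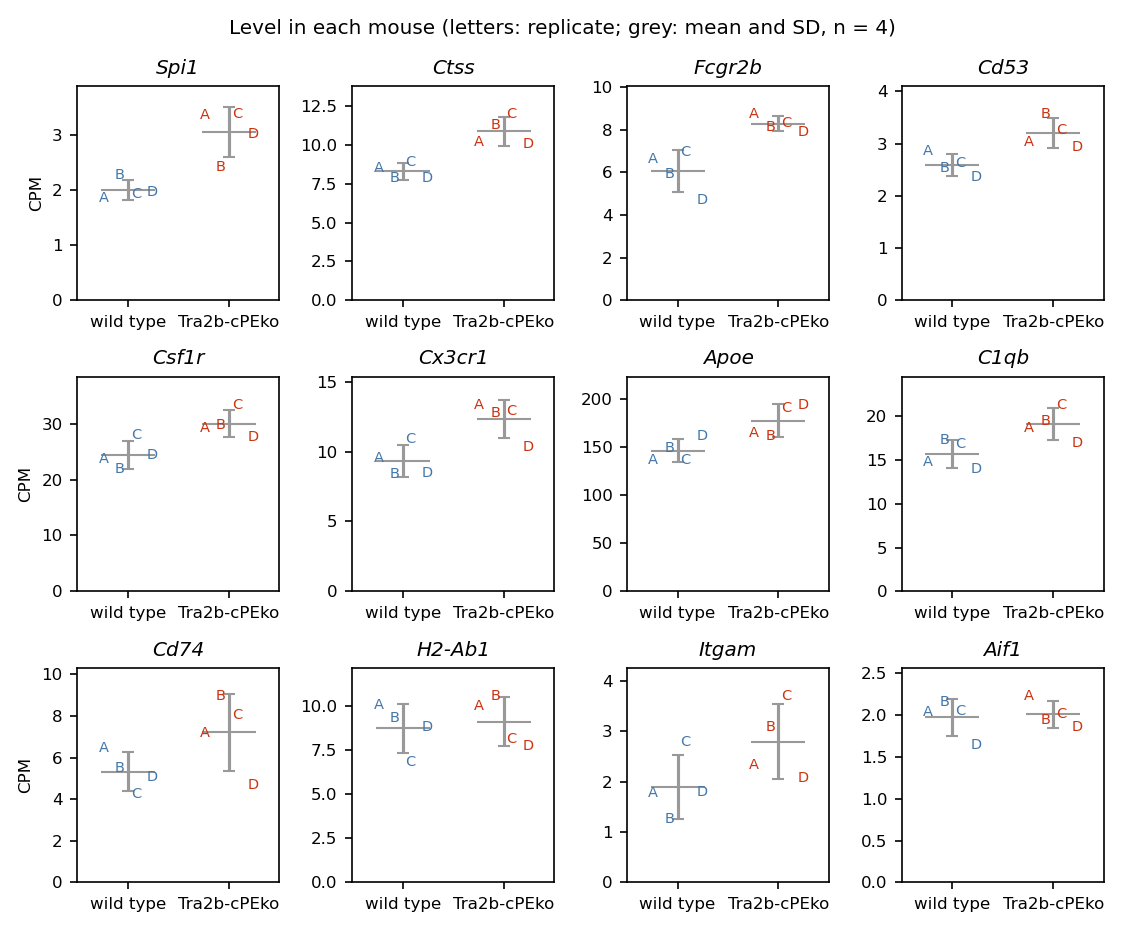
Level of 12 members in each mouse (y axis, CPM, from 0; letters, replicates A to D; grey, mean and SD of 4 mice), wild type left and *Tra2b-cPEko* right in each panel. *Spi1*, *Ctss*, *Fcgr2b* and *Cd53* do not overlap between genotypes, *Csf1r* and *Cx3cr1* overlap by 1 mouse on each side, and *H2-Ab1* and *Aif1* lie on top of each other.

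Resident macrophage genes, listed for the mannose receptor-positive macrophages of the interstitium, were all higher at the mean, with a median log2 fold change of 0.25. At an unadjusted p under 0.05, 3 of 9 were higher (*Mrc1*, *Pf4* and *Apoe*) and none lower. Of the list, *Apoe*, *Pf4* and *Lyve1* are also made by other cells. *Mrc1*, the mannose receptor CD206, was at 37.3, 36.2, 46.6 and 37.9 CPM in wild type A to D and 44.7, 47.5, 58.4 and 46.3 CPM in *Tra2b-cPEko* A to D. Wild type C was the one wild type mouse that reached into the *Tra2b-cPEko* range, and the log2 fold change was 0.32 ± 0.10, adjusted p = 0.193. *Apoe*, a lipid carrier made by macrophages and by steroid-making and other cells, had the highest level of the list, 137, 149.6, 137 and 162 CPM in wild type A to D and 165, 161, 190.3 and 194 CPM in *Tra2b-cPEko* A to D. Wild type D was just above *Tra2b-cPEko* B, and otherwise the groups were apart (log2 fold change 0.28 ± 0.073, adjusted p = 0.135). *F13a1*, the transglutaminase of clotting that resident macrophages also make, was at 24.5, 21.2, 28.7 and 20.8 CPM in wild type A to D and 22.6, 30.2, 38.97 and 33.6 CPM in *Tra2b-cPEko* A to D. *Tra2b-cPEko* A lay among the wild type mice and the other 3 above them all (log2 fold change 0.40 ± 0.17, adjusted p = 0.33).

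*Pf4*, a chemokine of platelets and tissue macrophages, was at 6.198 ± 0.286 CPM in wild type and 7.35 ± 1.08 CPM in *Tra2b-cPEko* (log2 fold change 0.25 ± 0.11, adjusted p = 0.305). *Folr2*, a folate receptor of resident macrophages, was at 3.603 ± 0.948 CPM in wild type and 4.49 ± 0.455 CPM in *Tra2b-cPEko*, and *Lyve1*, a hyaluronan receptor shared with lymphatic endothelium, at 4.94 ± 1.28 CPM in wild type and 5.81 ± 0.662 CPM in *Tra2b-cPEko*. Their log2 fold changes were 0.32 ± 0.17, adjusted p = 0.388 and 0.24 ± 0.17, adjusted p = 0.519. *Cd163*, the scavenger receptor for haemoglobin, was the lowest of the members at 0.882 ± 0.212 CPM in wild type and 1.02 ± 0.243 CPM in *Tra2b-cPEko*, on 26 to 68 reads a library, and *Trem2*, a lipid-sensing receptor, was at 1.88 ± 0.439 CPM in wild type and 2.11 ± 0.234 CPM in *Tra2b-cPEko*. Neither difference passed the test (log2 fold changes 0.21 ± 0.22, adjusted p = 0.688 and 0.18 ± 0.17, adjusted p = 0.661). *Ms4a7*, a membrane protein of macrophages, was at 2.19 ± 0.366 CPM in wild type and 2.28 ± 0.405 CPM in *Tra2b-cPEko*, and its log2 fold change of 0.057 ± 0.16, adjusted p = 0.901 turned to -0.030 without wild type D and to -0.050 without *Tra2b-cPEko* B.

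The 3 chains of complement C1q, which opens the classical pathway and is made chiefly by macrophages, sit side by side on chromosome 4 (136606009 to 136626161, GRCm39) and were measured at nearly equal read shares. *C1qa* was at 15.6, 18.4, 16.1 and 14.3 CPM in wild type A to D and 19.1, 16.7, 19.9 and 18.5 CPM in *Tra2b-cPEko* A to D. *C1qb* was at 14.7, 17.2, 16.8 and 13.96 CPM in wild type A to D and 18.6, 19.4, 21.2 and 16.9 CPM in *Tra2b-cPEko* A to D. *C1qc* was at 14.7, 17.7, 16.5 and 16.3 CPM in wild type A to D and 19.7, 17.2, 20.4 and 19.5 CPM in *Tra2b-cPEko* A to D. In each chain wild type B was above the lowest *Tra2b-cPEko* mouse, and the other 3 wild type mice were below all *Tra2b-cPEko* mice. All 3 were higher at an unadjusted p under 0.05 and none passed the adjusted threshold, with log2 fold changes of 0.21 ± 0.084, adjusted p = 0.271, 0.28 ± 0.088, adjusted p = 0.179 and 0.24 ± 0.076, adjusted p = 0.183. Per kilobase of annotated exon the wild type levels were 9.99, 2.51 and 5.7 CPM for the A, B and C chains, and the annotated exons of *C1qb* are the longest of the 3, at 6246 bases.

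Antigen presentation genes had the highest median log2 fold change of the 7 roles, 0.39, but the MHC class II genes and the protease *Ctss* did not vary alike among mice. *Ctss* (chromosome 3, 95433963 to 95463717, GRCm39) encodes cathepsin S, which trims the invariant chain in the endosomes of antigen-presenting cells. Its level was 8.51, 7.83, 8.899 and 7.88 CPM in wild type A to D and 10.2, 11.2, 11.97 and 10.02 CPM in *Tra2b-cPEko* A to D. The lowest *Tra2b-cPEko* mouse was above the highest wild type mouse, and the log2 fold change of 0.39 ± 0.086, adjusted p = 0.0895 had the smallest adjusted p of the 35 members. *Cd74*, the invariant chain, was at 6.47, 5.51, 4.25 and 5.07 CPM in wild type A to D and 7.18, 8.96, 8.04 and 4.68 CPM in *Tra2b-cPEko* A to D. *Tra2b-cPEko* A, B and C were above all wild type mice and *Tra2b-cPEko* D was below 3 of them (log2 fold change 0.44 ± 0.19, adjusted p = 0.305). *H2-Aa*, the class II alpha chain, was at 1.81, 2.37, 1.75 and 2.66 CPM in wild type A to D and 3.35, 3.35, 3.100 and 2.097 CPM in *Tra2b-cPEko* A to D. Here too *Tra2b-cPEko* D alone lay within the wild type range (log2 fold change 0.47 ± 0.18, adjusted p = 0.258).

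The class II beta chains had smaller log2 fold changes than *H2-Aa* and *Cd74*. *H2-Ab1* was at 10.02, 9.296, 6.795 and 8.76 CPM in wild type A to D and 9.96, 10.5, 8.12 and 7.74 CPM in *Tra2b-cPEko* A to D, and *H2-Eb1* at 2.81, 2.72, 2.104 and 2.66 CPM in wild type A to D and 3.47, 3.43, 2.57 and 2.12 CPM in *Tra2b-cPEko* A to D. For both, wild type C was the lowest mouse of all 8 and *Tra2b-cPEko* D the lowest of its genotype. Their log2 fold changes were 0.061 ± 0.13, adjusted p = 0.865 and 0.17 ± 0.17, adjusted p = 0.653, and that of *H2-Ab1* turned to -0.043 without wild type C and to -0.017 without *Tra2b-cPEko* B. *H2-Aa* and *H2-Eb1* overlap on opposite strands in the annotation, and how the counting treated strand is not given in the sources used here, so reads in the overlap may be assigned to either gene.

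Short promoter sequences of 2 kinds are shown for the members that hold the letters searched for. Among these, *Ctss* and *Cd53* do not overlap between genotypes, while *C1qc*, *Pf4* and *F13a1* do. *H2-Aa* and *H2-Eb1* are among the class II chains, each of which was lowest within its genotype in wild type C and in *Tra2b-cPEko* D. The sequences come from RefSeq promoter windows on GRCm38.p6, which run from 250 bases before to 50 after each start site and were found for 25 of the 35 members. *Spi1* had no window, and that of *Fcgr2b* held no match. The first set holds the letters GAGGAAGT on either strand, a core of the kind bound by PU.1, in capitals. They occur in 1052 of 32851 promoter windows (3.2%) and in windows of 5 members.
Ctss: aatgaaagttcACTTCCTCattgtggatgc
Cd53: cactcagtctcACTTCCTCactcttctcgc
C1qc: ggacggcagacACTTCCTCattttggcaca
Pf4: ttctgcagagcACTTCCTCatcctgtatcc
F13a1: cgagtccttttGAGGAAGTacccagaggca

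Each run of 30 bases reads 5′ to 3′ along the strand of its gene. Capitals ACTTCCTC mark the motif on the strand opposite to the gene, as in *Ctss* (chr3:95526773-95526802, plus strand), *Cd53* (chr3:106790125-106790154, minus strand), *C1qc* (chr4:136893091-136893120, minus strand) and *Pf4* (chr5:90772414-90772443, plus strand). In *F13a1* (chr13:37049181-37049210, minus strand) the motif lies on the gene's own strand. The motif began at -2, 6, -195, -10 and 14 bases from the start site in *Ctss*, *Cd53*, *C1qc*, *Pf4* and *F13a1*. These 5 genes had log2 fold changes of 0.39, 0.31, 0.24, 0.25 and 0.40. A match is a description of letters and no evidence of binding.

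The second set holds CTGATTGG on either strand, the Y box that class II promoters are known for, in capitals. It occurs in 1346 of the 32851 windows (4.1%) and in windows of 2 members, *H2-Aa* (chr17:34287841-34287900, minus strand) and *H2-Eb1* (chr17:34305779-34305838, plus strand). It began at -51 and -62 bases from their start sites, on the strand of the gene in both. The other class II members, *H2-Ab1* and *Cd74*, had no promoter window and could not be searched.
H2-Aa: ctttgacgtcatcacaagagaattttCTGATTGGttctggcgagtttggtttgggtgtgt
H2-Eb1: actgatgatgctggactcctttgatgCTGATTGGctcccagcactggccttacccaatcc

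Among the Fc receptors and their adaptors, which carry antibody-bound signals into myeloid cells, 1 of 5 was at an unadjusted p under 0.05. It was *Fcgr2b* (chromosome 1, 170786186 to 170804177, GRCm39), the inhibitory receptor for IgG, which B cells and some endothelial cells also make. Its level was 6.65, 5.91, 6.96 and 4.73 CPM in wild type A to D and 8.74, 8.14, 8.32 and 7.899 CPM in *Tra2b-cPEko* A to D. The 4 *Tra2b-cPEko* mice were close together and all above wild type, whose lowest mouse was D (log2 fold change 0.45 ± 0.12, adjusted p = 0.122). *Fcgr3*, an activating receptor from a neighbouring gene, was nearly level at 5.63, 5.37, 6.96 and 4.68 CPM in wild type A to D and 5.57, 6.65, 5.92 and 5.26 CPM in *Tra2b-cPEko* A to D (log2 fold change 0.048 ± 0.13, adjusted p = 0.892), with a sign that turned without wild type D (-0.039) and without *Tra2b-cPEko* B (-0.019). The transcripts of these 2 genes share a stretch of 519 bases at 96.1% identity, so the split of reads between them is uncertain.

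*Fcgr1*, the high-affinity IgG receptor, was at 1.49, 1.28, 1.599 and 1.25 CPM in wild type A to D and 1.92, 2.02, 1.903 and 1.31 CPM in *Tra2b-cPEko* A to D. *Tra2b-cPEko* A, B and C were above every wild type mouse and D was within their range (log2 fold change 0.35 ± 0.17, adjusted p = 0.335). The shared signalling chains *Fcer1g* and *Tyrobp* were at 6.96 ± 0.828 CPM in wild type and 8.04 ± 0.863 CPM in *Tra2b-cPEko* and at 5.53 ± 0.924 CPM in wild type and 6.62 ± 0.5399 CPM in *Tra2b-cPEko*, with log2 fold changes of 0.21 ± 0.11, adjusted p = 0.384 and 0.26 ± 0.13, adjusted p = 0.345. *Tyrobp* had the median log2 fold change of all 35 members.

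Of the innate defence genes, *Lyz2*, the lysozyme of macrophages and neutrophils, was at 31.6, 25.1, 32.7 and 19.1 CPM in wild type A to D and 30.5, 38.9, 33.9 and 29.03 CPM in *Tra2b-cPEko* A to D. Wild type D was the lowest mouse and wild type A and C lay inside the *Tra2b-cPEko* range (log2 fold change 0.29 ± 0.18, adjusted p = 0.481). It shares 1272 bases at 95.5% identity with *Lyz1*, which was counted at no more than 0.191 CPM in any library. *Cd14*, the co-receptor for bacterial lipopolysaccharide, was at 0.792, 1.09, 0.736 and 0.983 CPM in wild type A to D and 1.34, 0.844, 1.39 and 1.23 CPM in *Tra2b-cPEko* A to D, on 31 to 67 reads a library. *Tra2b-cPEko* A, C and D were above all wild type mice and B was among them (log2 fold change 0.42 ± 0.20, adjusted p = 0.331).

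The pan-leukocyte genes, which apart from *Itgam* mark all or most white blood cells, had 3 of 5 at an unadjusted p under 0.05 (*Cd53*, *Laptm5* and *Itgam*). *Cd53* (chromosome 3, 106666177 to 106697530, GRCm39), a tetraspanin, was at 2.85, 2.53, 2.63 and 2.35 CPM in wild type A to D and 3.03, 3.57, 3.27 and 2.94 CPM in *Tra2b-cPEko* A to D. The genotypes did not overlap, though wild type A and *Tra2b-cPEko* D were close (log2 fold change 0.31 ± 0.12, adjusted p = 0.258). *Itgam*, the CD11b chain of an integrin of macrophages and neutrophils, was at 1.76, 1.25, 2.78 and 1.796 CPM in wild type A to D and 2.33, 3.08, 3.698 and 2.07 CPM in *Tra2b-cPEko* A to D. Wild type C was above 2 of the 4 *Tra2b-cPEko* mice, and the log2 fold change was large with a wide error, 0.56 ± 0.24, adjusted p = 0.313. An overlapping gene model on the same strand, *Gm49368*, shares 3454 bases with *Itgam*, so reads there may have been counted as ambiguous.

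*Laptm5*, a lysosomal protein of blood cells, was at 12.7 ± 1.17 CPM in wild type and 14.4 ± 1.17 CPM in *Tra2b-cPEko* (log2 fold change 0.19 ± 0.086, adjusted p = 0.324). *Ptprc*, the CD45 phosphatase, was at 2.29 ± 0.502 CPM in wild type and 2.74 ± 0.383 CPM in *Tra2b-cPEko*, and *Itgb2*, the integrin chain that pairs with CD11b, at 2.12 ± 0.147 CPM in wild type and 2.41 ± 0.365 CPM in *Tra2b-cPEko*. Their log2 fold changes were 0.26 ± 0.17, adjusted p = 0.495 and 0.19 ± 0.14, adjusted p = 0.542.

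Levels between members spanned a wide range even per length. Over wild type mice, *Apoe* had 36.2 CPM per kilobase of annotated exon, followed by *C1qa* (9.99), *Lyz2* (8.16), *Tyrobp* (8.11) and *Fcer1g* (6.001), while *Cd14* had 0.519, *Cd163* 0.159 and *Ptprc* 0.122. The order of neighbours in this list was not tested.

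The mice of each genotype differed in a way that crossed roles. The mean over the 35 members of log2 CPM less the wild type mean was 0.04, 0.01, 0.07 and -0.12 in wild type A to D and 0.27, 0.30, 0.40 and 0.14 in *Tra2b-cPEko* A to D. *Tra2b-cPEko* C was the highest mouse, with 34 of 35 members above their wild type mean, and it is the library with the high *Crisp1* count and adipocyte sum. *Tra2b-cPEko* D was the lowest of its genotype, with 23 of 35 above, and wild type D the lowest of all, with 7 of 35. The 4 MHC class II members went another way. Their mean was 0.11, 0.11, -0.30 and 0.09 in wild type A to D and 0.43, 0.53, 0.27 and -0.15 in *Tra2b-cPEko* A to D, so wild type C, the highest wild type mouse over all members, was the lowest for class II. In *Tra2b-cPEko* D none of the 4 was above its wild type mean while 7 of 9 resident macrophage genes were.

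**Figure D3:**
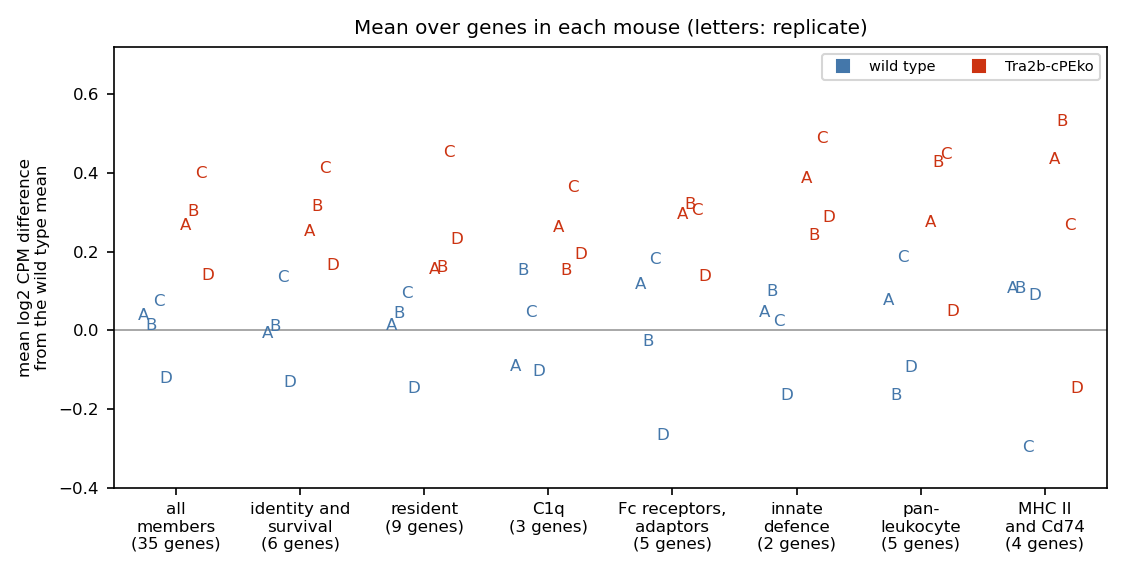
Mean over the genes of each role of log2 CPM less the gene's wild type mean (y axis, log2 units) in each mouse (letters, replicates; blue, wild type; red, *Tra2b-cPEko*). Over all 35 members the *Tra2b-cPEko* mice sit at 0.14 to 0.40 and the wild type mice at -0.12 to 0.07, while for MHC class II genes and *Cd74* *Tra2b-cPEko* D sits at -0.15.

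**Figure D4:**
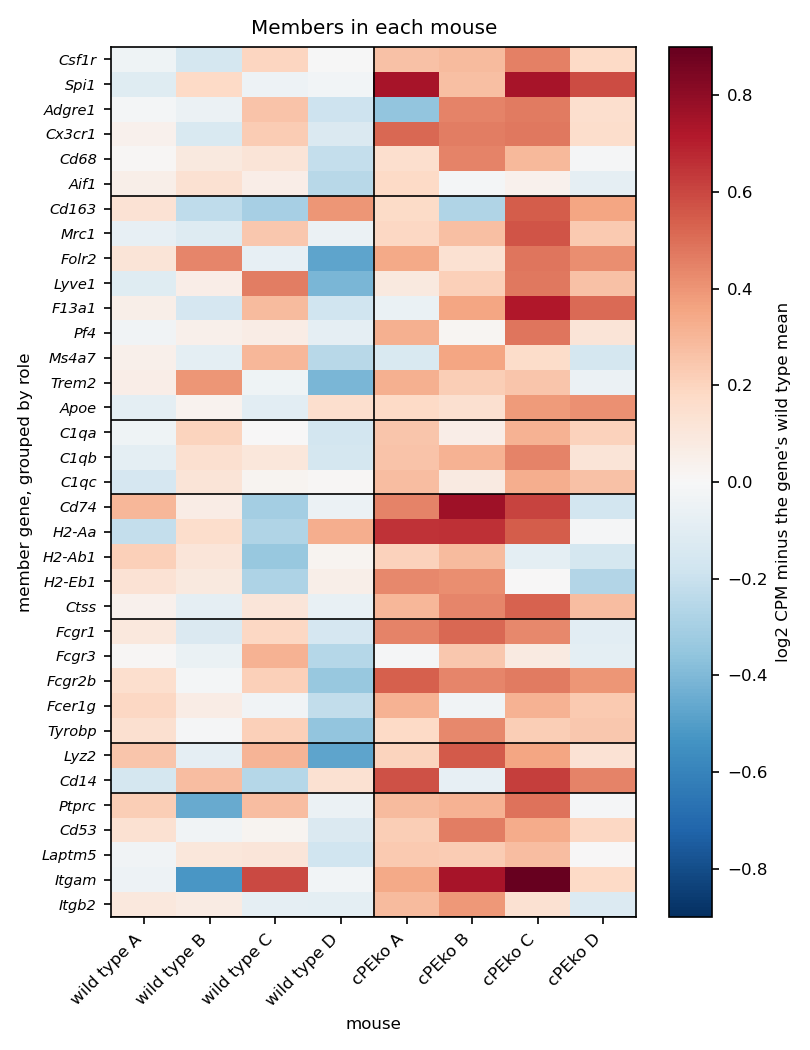
Each member (rows, grouped by role) in each mouse (columns), as log2 CPM less the gene's wild type mean (colour scale, log2 units). The column of *Tra2b-cPEko* C is above 0 in 34 of 35 genes, that of wild type D in 7 of 35, and the rows of *H2-Ab1* and *H2-Eb1* are lowest in wild type C and *Tra2b-cPEko* D.

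Macrophage and leukocyte genes outside the 35 were taken from a wider set of 107. Of its 96 genes tested, 79 had a log2 fold change above 0 and 17 below, with a median of 0.20. edgeR gave 0 of 96 an adjusted p under 0.05, and 31 (32.3%) were higher and 1 lower at an unadjusted p under 0.05, against 8.22% higher and 7.07% lower among all genes. DESeq2 called 7 higher and 1 lower, against 1.66% and 1.14% of all genes. All mice of one genotype were above all of the other in 15 genes (15.6%) that were higher in *Tra2b-cPEko* and in 1 that was lower, against 4.36% and 4.18% of all genes. *C3* and *Cd52*, among these 15 and named after their values were seen, were highest in *Tra2b-cPEko* C, at 19.2 and 8.96 CPM. The other libraries held 5.01 to 9.67 CPM of *C3* and 1.03 to 1.72 CPM of *Cd52*. *Blnk*, whose groups overlapped, was at 3.95 CPM in *Tra2b-cPEko* C, against 0.544 to 0.747 CPM elsewhere. Without *Tra2b-cPEko* C, 21 of the wider genes were higher and 1 lower at an unadjusted p under 0.05, DESeq2 called 3 higher and 0 lower, and 15 were higher and 1 lower without overlap. Without wild type A and B these counts were 19 and 1, 3 and 0, and 23 and 1. Among all genes, 5.63% were higher at that p without *Tra2b-cPEko* C, 5.07% were higher without overlap, and DESeq2 called 78 higher and 32 lower. The values for all genes without wild type A and B were 6.39%, 10.7%, and 126 and 39.

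By list, the ligands and chemokines had 2 of 7 tested genes higher at an unadjusted p under 0.05 and none lower. *Csf1*, the main growth factor of macrophages, was at 24.1, 28.01, 27.9 and 27.9 CPM in wild type A to D and 34.6, 31.7, 34.3 and 29.8 CPM in *Tra2b-cPEko* A to D, without overlap (log2 fold change 0.27 ± 0.068, adjusted p = 0.114). *Il34*, the other ligand of Csf1r and named here after its values were seen, was at 0.8999 ± 0.0809 CPM in wild type and 1.304 ± 0.108 CPM in *Tra2b-cPEko* and also did not overlap (log2 fold change 0.54 ± 0.15, adjusted p = 0.144). *Cx3cl1*, the ligand of Cx3cr1 and the most highly counted gene of the list, was at 32.4 ± 4.95 CPM in wild type and 36.4 ± 1.601 CPM in *Tra2b-cPEko* (log2 fold change 0.17 ± 0.093, adjusted p = 0.422).

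Other macrophage receptors and enzymes had 13 of 30 higher and none lower at that p, with a median of 0.29. *Ncf1*, a subunit of the phagocyte oxidase, was at 3.57, 3.22, 3.09 and 2.96 CPM in wild type A to D and 4.39, 3.84, 5.09 and 4.41 CPM in *Tra2b-cPEko* A to D, without overlap (log2 fold change 0.47 ± 0.12, adjusted p = 0.114). *Axl*, a receptor for apoptotic cells that other testis cells also make, was the most highly counted at 407 ± 15.96 CPM in wild type and 430.2 ± 13.3 CPM in *Tra2b-cPEko* (log2 fold change 0.079 ± 0.043, adjusted p = 0.406). The 13 macrophage transcription factors other than *Spi1* had none at an unadjusted p under 0.05 and a median of 0.0023. *Gata6*, which Sertoli and Leydig cells also express, was their most highly counted gene at 55.7 ± 7.96 CPM in wild type and 51.97 ± 5.21 CPM in *Tra2b-cPEko* (log2 fold change -0.10 ± 0.10, adjusted p = 0.663).

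The rest of the MHC class II pathway had 2 of 8 higher and none lower, with a median of 0.04. *Lgmn*, an endosomal protease that other cells make too, was at 168, 177, 169 and 164 CPM in wild type A to D and 195, 197, 229 and 193 CPM in *Tra2b-cPEko* A to D, without overlap, and had the smallest adjusted p of the wider set (log2 fold change 0.26 ± 0.056, adjusted p = 0.084). Classical complement genes and inhibitors had 5 of 10 higher and none lower, with *C1s1*, a protease of the C1 complex, at 114 ± 12.3 CPM in wild type and 127 ± 8.34 CPM in *Tra2b-cPEko* (log2 fold change 0.16 ± 0.074, adjusted p = 0.327). Fc receptor signalling genes had 3 of 12 higher and none lower. Of these *Ptpn6*, the SHP-1 phosphatase of blood cells, was at 3.91, 4.07, 3.997 and 4.35 CPM in wild type A to D and 5.51, 5.77, 6.24 and 4.63 CPM in *Tra2b-cPEko* A to D, without overlap (log2 fold change 0.44 ± 0.11, adjusted p = 0.114), and *Plcg2*, a phospholipase, at 19.4 ± 1.17 CPM in wild type and 18.3 ± 0.687 CPM in *Tra2b-cPEko* (log2 fold change -0.084 ± 0.064, adjusted p = 0.554).

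Leukocyte integrins, adhesion and cytoskeleton genes had 6 of 16 higher and 1 lower. *Lcp1*, an actin bundler of white blood cells, was at 15.2 ± 1.36 CPM in wild type and 18.97 ± 2.13 CPM in *Tra2b-cPEko* (log2 fold change 0.33 ± 0.091, adjusted p = 0.142). The 1 gene that was lower was *Itgb7*, an integrin chain of gut-homing lymphocytes, at 2.83, 3.05, 2.36 and 2.58 CPM in wild type A to D and 1.86, 1.99, 1.77 and 1.82 CPM in *Tra2b-cPEko* A to D, without overlap (log2 fold change -0.54 ± 0.13, adjusted p = 0.105).

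Without *Tra2b-cPEko* C, the 7 wider lists in the order given had 2 of 7, 7 of 31, 0 of 13, 2 of 8, 3 of 10, 2 of 12 and 5 of 16 genes higher at an unadjusted p under 0.05. Without wild type A and B they had 2 of 7, 8 of 31, 1 of 13, 3 of 9, 0 of 10, 2 of 12 and 3 of 16. The shares of all genes higher at that p were 5.63% without *Tra2b-cPEko* C and 6.39% without wild type A and B. The classical complement list thus had 5 genes at that p with all mice and 0 without wild type A and B. Its median log2 fold change was 0.16 with all mice and 0.14 without wild type A and B, where all 10 genes were above 0.

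**Figure D5:**
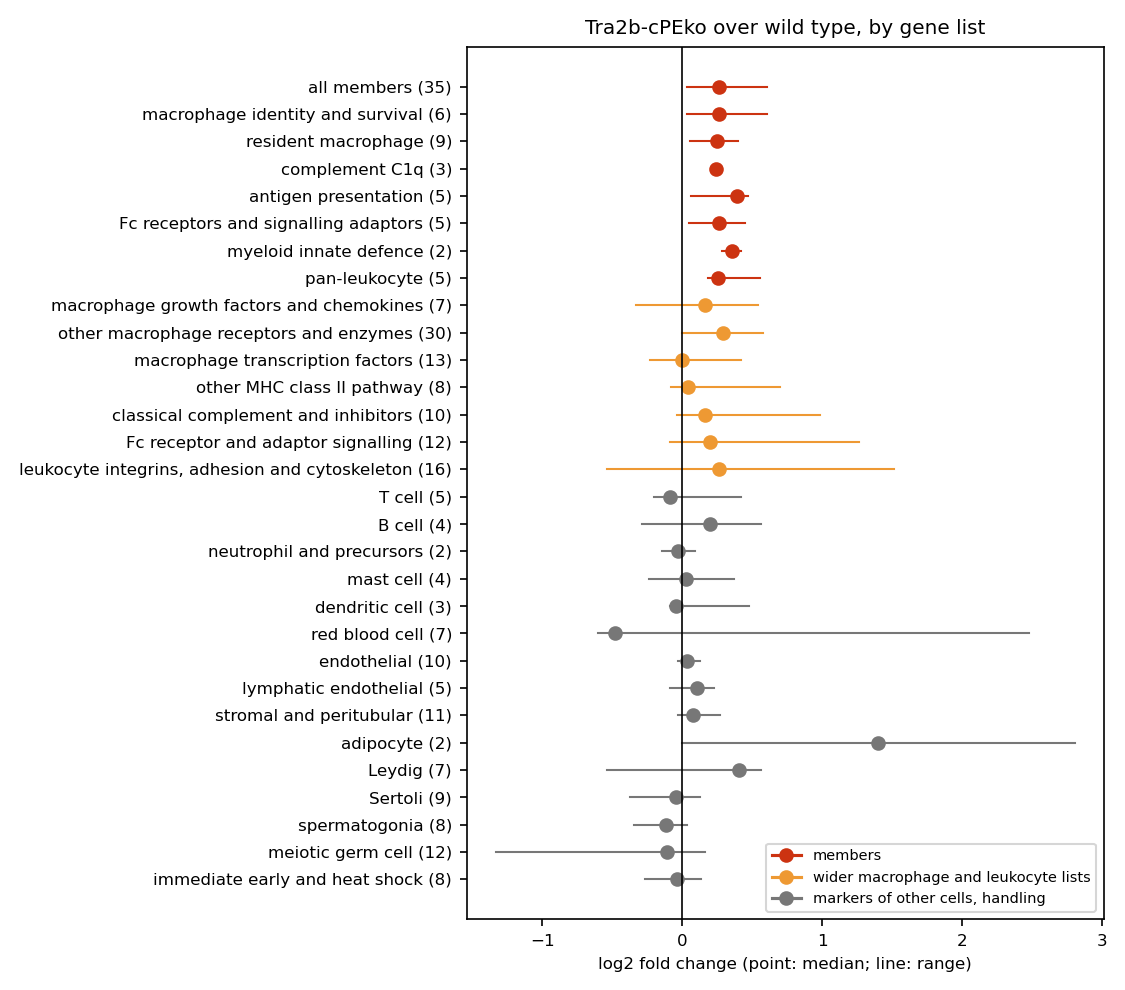
Log2 fold change by gene list (x axis, log2 units; point, median; line, lowest to highest gene; number of genes tested in brackets; vertical line, median of all genes). The 7 member roles have medians of 0.24 to 0.39, the wider lists 0.0023 to 0.29, and 12 of the 15 lists of other cells and handling have medians from -0.11 to 0.20. The other 3 are adipocyte genes at 1.40 (2 genes), Leydig genes at 0.40 and red blood cell genes at -0.48.

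Markers of B, NK and mast cells were near the floor of detection, and those of T cells, dendritic cells and neutrophil precursors were partly at levels of the lower members. All 8 B cell, 6 NK cell and 7 mast cell genes stayed under 1 CPM in every library, *Fcer1a* of mast cells and *Ly6g* of neutrophils had no read in any, and the most highly counted B, NK and mast cell genes were *Pax5* (0.418 ± 0.0772 CPM in wild type and 0.585 ± 0.148 CPM in *Tra2b-cPEko*), *Eomes* (0.759 ± 0.114 CPM in wild type and 0.802 ± 0.134 CPM in *Tra2b-cPEko*) and *Tpsb2* (0.381 ± 0.163 CPM in wild type and 0.511 ± 0.112 CPM in *Tra2b-cPEko*). Of the T cell, dendritic cell and neutrophil and precursor genes, 6 of 9, 5 of 8 and 8 of 11 also stayed under 1 CPM in every library. The T cell list summed to 10.6 to 12.7 CPM in wild type and 10.8 to 14.5 in *Tra2b-cPEko*. Its most highly counted gene, *Cd3e*, was at 5.43 ± 0.807 CPM in wild type and 5.097 ± 0.562 CPM in *Tra2b-cPEko*. The dendritic cell list summed to 62.8 to 75.4 CPM in wild type and 63.98 to 70.4 in *Tra2b-cPEko*, nearly all of it *Zbtb46* (65.1 ± 6.16 CPM in wild type and 63.4 ± 3.304 CPM in *Tra2b-cPEko*), which endothelial cells also express. *Flt3*, a growth factor receptor of dendritic cells and blood precursors, named after its values were seen, was at 1.43, 1.51, 1.98 and 1.66 CPM in wild type A to D and 2.47, 1.88, 2.99 and 1.798 CPM in *Tra2b-cPEko* A to D. *Tra2b-cPEko* A and C were above all wild type mice and B and D within their range (log2 fold change 0.48 ± 0.18, adjusted p = 0.252), while *Xcr1* of the same list was at 1.57 ± 0.128 CPM in wild type and 1.47 ± 0.348 CPM in *Tra2b-cPEko* (log2 fold change -0.088 ± 0.18, adjusted p = 0.854). Neutrophil and precursor genes summed to 2.19 to 5.84 CPM in wild type and 2.48 to 9.36 in *Tra2b-cPEko*, with the highest sums in wild type D and *Tra2b-cPEko* A. The part of these cell types in the members' values was not tested.

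Most lists of neighbouring tissue had medians nearer 0 than the members, and Leydig cell genes did not. The median log2 fold change was 0.03 for 10 endothelial genes, 0.10 for 5 lymphatic endothelial genes, 0.08 for 11 stromal and peritubular genes and -0.04 for 9 Sertoli cell genes. For 7 Leydig cell genes it was 0.40, with 5 above 0 and 2 below, from -0.54 (*Hsd17b3*) to 0.57 (*Star*). Their summed level was 393 to 467 CPM in wild type and 414, 656, 418 and 513 CPM in *Tra2b-cPEko* A to D. Germ cell lists had medians below 0, at -0.11 and 7 of 8 below 0 for spermatogonia and -0.11 and 10 of 12 below 0 for meiotic germ cells. Of these *Sohlh1*, a transcription factor of spermatogonia named after its values were seen, fell without overlap (log2 fold change -0.34 ± 0.055, adjusted p = 0.0341). The 8 immediate early and heat shock genes, which respond to handling of tissue, had a median of -0.04. Whether any of these lists had a part in the members' values was not tested.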

How the data were processed

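Total RNA from the whole testis of 8 mice, 4 of each genotype, was sequenced from stranded poly(A) libraries. The authors aligned reads with HISAT2 and, by the submitters' processing notes, which also name HTSeq 2.0.2, deposited 1 table of raw gene counts per mouse (builds named: mm39, GRCm39). The paper's methods name Salmon for quantification, and the strand setting is not given in the sources used here. Summary lines that name no gene held 31.0% to 32.4% of the reads in wild type and 32.7% to 33.6% in *Tra2b-cPEko*, without overlap. They were left out of library sizes and tests, and the part of this difference in the results was not tested.

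Gene symbols were matched to GENCODE positions on GRCm39. Levels are CPM after TMM scaling. Genotypes were compared with edgeR 4.0.16 (filterByExpr with a minimum count of 10 and total of 15, TMM, robust quasi-likelihood test, genotype only) with Benjamini-Hochberg adjustment over all genes tested. Log2 fold changes are *Tra2b-cPEko* over wild type ± SE, other values mean ± SD (n = 4), and adjusted p values are edgeR's unless DESeq2 is named. The common biological coefficient of variation was 9.56%. Single genes were also tested with an exact permutation test over the 8 mice. DESeq2 1.42.0, limma-voom 3.58.1, RLE and upper-quartile factors, no filter, a replicate block, leaving out mice and a threshold of 0.1 were alternatives. Leaving out wild type A and B together, the DESeq2 fits without mice, and the counts of the wider genes under these settings were chosen after seeing the data. The fit was tested on simulated counts. Transcripts were compared with BLAST+ 2.17.0 (at least 95% identity over 500 bases).

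All members are accounted for. Of the wider lists, the most highly counted gene of each list, any gene past the adjusted threshold and the 5 with the smallest unadjusted p are named, and of the lists of other cells the most highly counted defining genes. Members and lists were chosen with earlier results of these data known. The mice are described as biologically independent. All pairs of libraries of one genotype differed by more than sampling of reads would give (chi-square over genes, divided by its degrees of freedom, 6.24 to 19.1).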

Additional observations from a re-analysis of the deposited data

Results flagged for a closer look

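In 88 groups of 4 mice (35 members in 2 genotypes, and the mean over each of 9 sets of members), the lowest or highest mouse was compared with its neighbour by Dixon's ratio, which chance alone flags in about 1 group in 20. It flagged 5 groups. *Mrc1* was at 46.6 CPM in wild type C, against 36.2 to 37.9 CPM in the other 3 wild type mice. *Fcgr1* was at 1.31 CPM in *Tra2b-cPEko* D, against 1.90 to 2.02 CPM in the other 3 mice of that genotype. The mean log2 difference from the wild type mean was -0.22 in wild type C for antigen presentation genes, against 0.06 to 0.09, and -0.30 for MHC class II chains and *Cd74*, against 0.09 to 0.11. These 2 sets share 4 genes. For Fc receptors and signalling adaptors it was 0.14 in *Tra2b-cPEko* D, against 0.29 to 0.32.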

How the results depend on the processing

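All results here come from 4 mice against 4. All genes called by edgeR numbered 30, against 58 with upper-quartile factors, 123 with no low-count filter, 11 with limma-voom, 507 with DESeq2, 156 at a threshold of 0.1, 1 without wild type replicates A and B, and 3 to 84 when each mouse was left out in turn. DESeq2 called 110 to 1025 of all genes when each mouse was left out in turn. Members called numbered 0, against 6 with DESeq2, 0 to 10 with DESeq2 when each mouse was left out in turn, 2 at a threshold of 0.1 (*Ctss* and *Spi1*) and 0 in every fit of edgeR that left out 1 mouse. Wider pathway genes called numbered 0, against 1 with no low-count filter, 8 with DESeq2, 2 to 9 with DESeq2 when each mouse was left out in turn and 3 with DESeq2 without wild type replicates A and B. Wider genes at an unadjusted p under 0.05 numbered 32, and 22 to 37 when each mouse was left out and 20 without wild type replicates A and B. Wider genes without overlap numbered 16, and 16 to 30 when each mouse was left out. Members at an unadjusted p under 0.05 numbered 16, and 10 to 19 when each mouse was left out. Members without overlap numbered 4, and 4 to 14 when each mouse was left out and 9 without wild type replicates A and B, where fewer mice make separation easier. The cause of the other differences was not tested.

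With the replicate letter as a block (replicate block), all genes called numbered 67, members called 1 (*Mrc1*) and wider pathway genes called 1. The letters are not known to pair mice, since the deviations of mice with the same letter correlated at 0.0267, -0.135, -0.0393 and 0.116 for A to D. The median log2 fold change of the members stayed between 0.22 and 0.31 when mice were left out. Of 525 log2 fold changes of members under alternatives, 510 kept their direction and side of the threshold, 7 were newly called and 8 reversed. The reversals were in 4 members when mice were left out: *Aif1* (-0.050 to 0.080), *Ms4a7* (-0.050 to 0.17), *H2-Ab1* (-0.043 to 0.13) and *Fcgr3* (-0.039 to 0.16).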
